A study of Mus musculus with 2 samples.

Results

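Collagens and laminins are the chains from which basement membranes and fibrous connective tissue are built, and 54 of the 32285 genes measured in these thalamic cells encode them. They were taken by name: every symbol made of Col, a number, the letter a and a number, or of Lam, one of a, b or c and a digit, with at least 20 unique molecular identifiers (UMIs, the counted mRNA molecules) over both libraries. The pattern matched 55 genes. Col6a5 had 18 UMIs and fell outside, and Col10a1 with 36 and Col6a4 with 39 UMIs lay nearest inside the limit. The members are 11 fibrillar collagens, 6 type IV collagens, 5 beaded filament (type VI) collagens, 9 fibril-associated collagens, 3 short-chain collagens, 2 multiplexins, 4 transmembrane collagens, 3 other collagens, and 5 alpha, 3 beta and 3 gamma chains of laminin.

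The cells came from the dissected thalamus of 2 wildtype C57BL/6J mice aged 2 months that received no treatment, with 1 droplet library per mouse made from tissue digested with papain and other proteases. Neither a sort nor a treated group is named, so the comparisons are between cell classes within the same mice, and every class is present in both. The 2 libraries held 163418203 and 204839993 UMIs, and after filters on depth, mitochondrial share and doublets 6179 cells of mouse 1 and 9170 of mouse 2 were kept. The libraries shared 36 cell barcodes. Cells were clustered without the members and without the related matrix genes named below, and clusters were named from marker lists as "X-like". The word like is left out from here on. Levels are in CPM, the UMIs of a gene scaled to a common total of all UMIs of a class in that mouse, and are given for mouse 1 and then mouse 2. They were compared between classes and not between genes, since such libraries tag the 3′ end and no source used here says whether introns were counted.

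Most results turn on 4 small vascular classes: 21 and 48 fibroblasts, 337 and 287 pericytes, 40 and 190 smooth muscle cells, and 636 and 468 endothelial cells. The fibroblast class carried 14 and 15 of 16 fibroblast markers at a summed level of 12864 and 18385 CPM, with Slc47a1 at 0 in both mice, and pericytes held 804 and 785 CPM of that list. The sum alone did not mark out the class, since oligodendrocytes reached 12334 and 6816 CPM, of which 12328 and 6809 CPM was Ptgds, a prostaglandin synthase gene on the list. Without Ptgds, a step chosen after the values were seen, the list summed to 10768 and 15213 CPM in fibroblasts, 5.96 and 7.56 in oligodendrocytes and 564 and 512 in pericytes, and the next class, oligodendrocyte precursors, was at 1107 and 1155 CPM. Pericyte markers summed to 4372 and 3560 CPM in the fibroblast class against 32305 and 27188 CPM in pericytes, and what part they play in the fibroblast values was not tested. The neural classes were astrocytes (1033 and 361 cells), oligodendrocyte precursors (142 and 966), committed oligodendrocyte precursors (46 and 145), oligodendrocytes (1970 and 3307), glutamatergic neurons (294 and 1792), habenular neurons (143 and 348), GABAergic neurons (48 and 63) and neurons of unresolved kind (49 and 314). Microglia (935 and 522) and border macrophages (111 and 50) completed the 14 classes. The mice differed in how many cells of each class they gave and in depth: the median endothelial cell held 13092 UMIs in mouse 1 and 4987 in mouse 2.

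Each collagen molecule is a triple helix of alpha chains, and each laminin is a trimer of an alpha, a beta and a gamma chain. Type IV collagen and many of the laminins polymerise into sheets, and the sheets are tied together by nidogen and perlecan to form the basement membrane. In the brain such membranes surround endothelial cells and pericytes, lie under the end feet of astrocytes and cover the surface below the meninges. Fibrillar collagens such as types I and III form the fibres of the meninges and of the sheath around larger vessels.

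The type IV genes lie in head-to-head pairs that are read outward from a shared stretch of DNA, so their promoter windows are shown before their levels. In the mouse GRCm38 build with the GENCODE gene models, Col4a1 occupies chr8:11198423-11312826 on the minus strand and Col4a2 chr8:11312805-11449287 on the plus strand. Their 5′ ends overlap, with the start sites 21 bases apart. Col4a4 (chr1:82448423-82586849, minus) and Col4a3 (chr1:82586921-82722059, plus) start 72 bases apart, and Col4a6 (chrX:141165403-141474076, minus) and Col4a5 (chrX:141475385-141689234, plus) start 1309 bases apart. Each line below is a RefSeq window of GRCm38.p6 from 250 bases before to 50 bases after the start, 5′ to 3′ along the gene's own strand. Capitals mark, on either strand, the letters of a CCAAT box, of a GC box with the core GGGCGG, or of a TATA box spelled TATAAA.
Col4a1, chr8:11312777-11313076, minus: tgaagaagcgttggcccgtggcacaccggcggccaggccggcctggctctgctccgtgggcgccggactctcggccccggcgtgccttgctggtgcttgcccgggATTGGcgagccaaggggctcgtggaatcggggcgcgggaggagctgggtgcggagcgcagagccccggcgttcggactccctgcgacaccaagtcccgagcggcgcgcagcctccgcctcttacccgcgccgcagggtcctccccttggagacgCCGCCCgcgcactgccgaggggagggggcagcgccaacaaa
Col4a2, chr8:11312555-11312854, plus: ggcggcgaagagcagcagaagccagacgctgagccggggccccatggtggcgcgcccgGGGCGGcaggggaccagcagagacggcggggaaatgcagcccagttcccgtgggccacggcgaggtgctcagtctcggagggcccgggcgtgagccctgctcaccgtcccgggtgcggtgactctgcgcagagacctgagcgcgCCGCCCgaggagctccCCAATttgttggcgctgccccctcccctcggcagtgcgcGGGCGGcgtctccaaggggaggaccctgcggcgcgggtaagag
Col4a4, chr1:82586800-82587099, minus: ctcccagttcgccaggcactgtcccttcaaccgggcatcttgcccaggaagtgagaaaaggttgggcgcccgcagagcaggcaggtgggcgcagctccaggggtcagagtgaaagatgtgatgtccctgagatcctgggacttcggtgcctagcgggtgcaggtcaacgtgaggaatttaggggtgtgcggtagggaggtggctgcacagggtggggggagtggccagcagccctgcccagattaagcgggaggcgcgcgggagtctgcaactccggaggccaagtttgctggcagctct
Col4a5, chrX:141475169-141475468, plus: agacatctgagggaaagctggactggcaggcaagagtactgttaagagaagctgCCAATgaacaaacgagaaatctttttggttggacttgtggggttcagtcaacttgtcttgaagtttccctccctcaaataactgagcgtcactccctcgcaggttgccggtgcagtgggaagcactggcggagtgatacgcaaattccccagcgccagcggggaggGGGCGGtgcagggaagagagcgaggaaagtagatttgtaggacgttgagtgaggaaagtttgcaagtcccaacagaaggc
Col4a6, chrX:141474027-141474326, minus: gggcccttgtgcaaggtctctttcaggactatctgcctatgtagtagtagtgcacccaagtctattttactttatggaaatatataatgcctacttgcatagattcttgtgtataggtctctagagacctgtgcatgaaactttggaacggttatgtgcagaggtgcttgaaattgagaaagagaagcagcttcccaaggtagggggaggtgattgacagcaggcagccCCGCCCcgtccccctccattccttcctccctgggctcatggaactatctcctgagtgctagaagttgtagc
The Col4a1 and Col4a2 windows share 78 bases of DNA read in opposite directions, and their GC content was 74.0% and 73.7%, against a median of 52.7% over all windows. The Col4a4 window, at 63.3% GC, also contains the Col4a3 start and holds none of the 3 motifs. The Col4a5 and Col4a6 windows had 52.7% and 48.3% GC. The CCAAT box was found in the Col4a1, Col4a2 and Col4a5 windows, the GC box in those of Col4a1, Col4a2, Col4a5 and Col4a6, and the TATA box in none of the 5. Over all 32851 windows of this length the CCAAT box occurred in 37.4%, the GC box in 35.7% and the TATA box in 13.6%, and over the 43 windows found for 39 of the members in 32.6%, 58.1% and 11.6%. A match is only a run of letters and no binding was measured.

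The members were concentrated in the vascular classes. They made up 1.10% and 1.55% of all UMIs in fibroblasts, 0.447% and 0.485% in pericytes, 0.254% and 0.260% in smooth muscle and 0.139% and 0.134% in endothelial cells. Outside the vessel wall the share was 0.108% and 0.113% in astrocytes, 0.0883% and 0.100% in habenular neurons and 0.0307% and 0.0347% in oligodendrocytes. The mean level was highest in fibroblasts for 29 of the 54 members, all of them among the 51 members tested below (56.9%), while 9.05% of the 16943 genes tested had their highest level there. For 24 of these 29 the fibroblast class was highest in each mouse taken alone. Committed precursors led for 6 members, pericytes for 5, smooth muscle for 3, and precursors, habenular neurons and unresolved neurons for 2 each. Others had their highest level in endothelial cells (Lama3), microglia (Col27a1), astrocytes (Lamb3) and border macrophages (Col17a1). For 8 members the mean stayed below 10 CPM in every class.

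**Figure D1:**
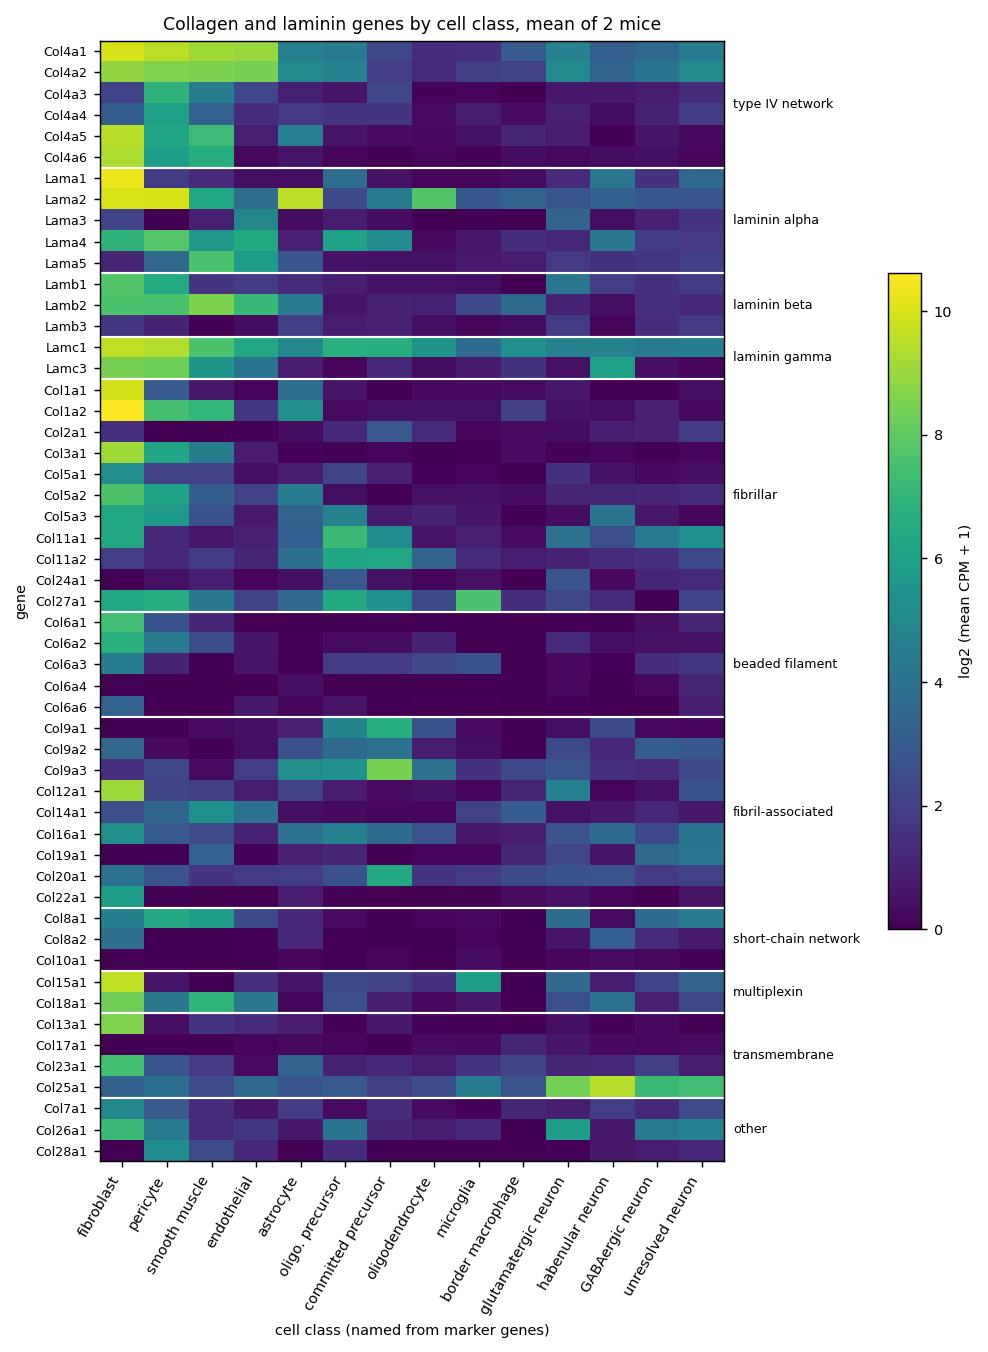
Heat map of the collagen and laminin genes reported by name (rows, by structural group) in the 14 cell classes (columns); colour is log2 of the mean CPM of the 2 mice plus 1. The fibroblast column holds the highest level for 29 members, and the neuronal and glial columns stand out for few of them.

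Type IV collagen is the network-forming collagen of basement membranes, and its 6 genes showed 3 patterns across the vessel wall, one for each genomic pair. Col4a1 and Col4a2, whose chains form the ubiquitous network, were read in all 4 vascular classes. Col4a1 was at 592 and 1415 CPM in fibroblasts, 682 and 783 in pericytes, 551 and 539 in smooth muscle and 504 and 513 in endothelial cells. Pericytes were highest in mouse 1 and fibroblasts in mouse 2, so the order of the classes was not shared. Col4a2 was at 327 and 612 CPM in fibroblasts, 323 and 432 in pericytes, 358 and 375 in smooth muscle and 352 and 340.3 in endothelial cells, again without a gap between classes. In neural classes both stayed far lower: Col4a1 was at 23.2 and 24.1 CPM in astrocytes, 23.5 and 26.2 in glutamatergic neurons and 24.5 and 16.5 in oligodendrocyte precursors, and at 1.82 and 1.202 in oligodendrocytes.

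The second pair, Col4a3 and Col4a4, encodes chains best known from the filtration membrane of the kidney, and here it was highest in pericytes. Col4a3 stood at 116 and 125 CPM in pericytes, 15.8 and 27.1 in smooth muscle and 2.34 and 5.14 in endothelial cells, and 43.9% and 36.2% of pericytes had a Col4a3 UMI against 2.83% and 1.71% of endothelial cells. The median pericyte was shallower than the median endothelial cell (7458 and 4803 UMIs against 13092 and 4987). Col4a4 was at 49.3 and 78.7 CPM in pericytes, 8.50 and 10.0 in smooth muscle, 6.80 and 8.97 in fibroblasts and 1.56 and 1.58 in endothelial cells. For each of these genes the pericyte values of both mice lay above every other class.

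The third pair, Col4a5 and Col4a6, was highest in fibroblasts, lower in smooth muscle and pericytes, and nearly missing from endothelium. Col4a5 was at 497 and 947 CPM in fibroblasts, 126 and 182 in smooth muscle, 77.7 and 76.0 in pericytes and 1.48 and 0.395 in endothelial cells. Col4a6 was at 456 and 825 CPM in fibroblasts, 91.1 and 102 in smooth muscle, 58.2 and 63.9 in pericytes and 0.347 and 0 in endothelial cells. The order of the 4 classes was the same for both genes in both mice. They parted in astrocytes, where Col4a5 was at 22.4 and 24.9 CPM and Col4a6 at 0.632 and 0.283 CPM.

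**Figure D2:**
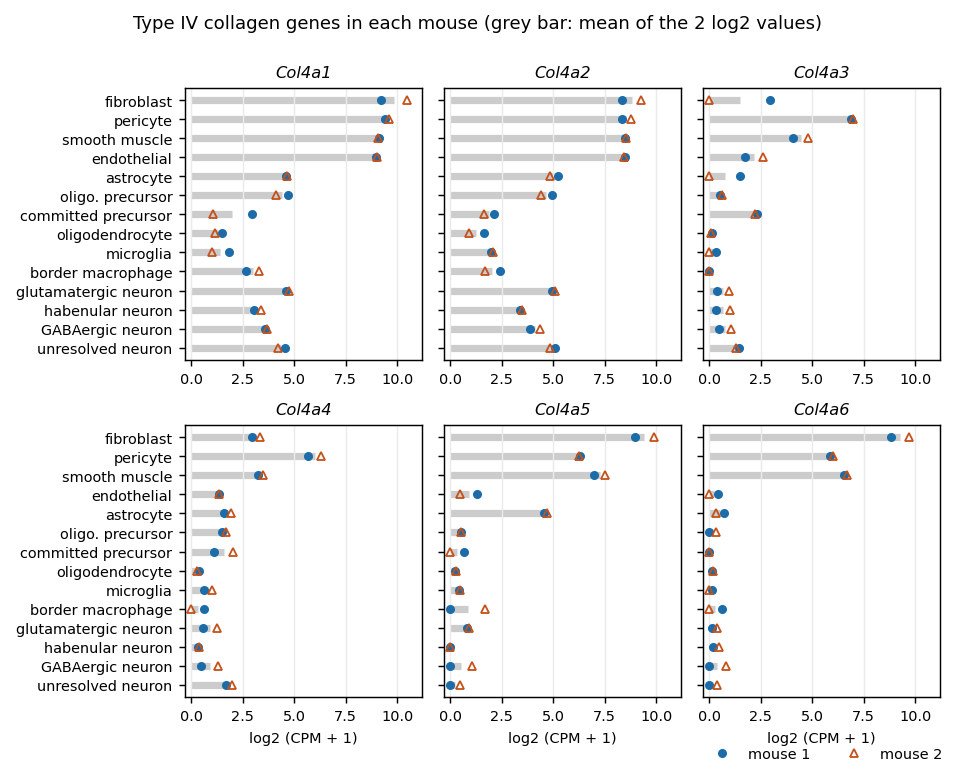
Dot plots of the 6 type IV collagen genes in the 14 cell classes; the horizontal axis is log2(CPM + 1), filled circles are mouse 1, open triangles mouse 2 and grey bars the mean of the 2 log2 values. Col4a1 and Col4a2 are high in all 4 vascular classes, Col4a3 and Col4a4 in pericytes, and Col4a5 and Col4a6 in fibroblasts with little in endothelial cells.

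Laminin alpha chains carry the sites that cells bind, and the 5 of them were spread over different classes. Lama1, the alpha chain of the laminin of the pial surface, was at 1204 and 1382 CPM in fibroblasts (1293 ± 125, SD, n = 2 mice), and the next class, habenular neurons, was at 20.8 and 13.2 CPM. A Lama1 UMI was found in 95.2% and 97.9% of fibroblasts. Lama2, mutated in a congenital muscular dystrophy with changes of the white matter, had the widest reach among the alpha chains. It was at 1027 and 1048 CPM in fibroblasts, 1078 and 961 in pericytes, 722 and 788 in astrocytes and 209 and 221 in oligodendrocytes, but at 46.1 and 112 in smooth muscle and 14.1 and 11.9 in endothelial cells. Fibroblasts and pericytes overlapped, and each lay above astrocytes. Lama2 UMIs occurred in 98.1% and 95.8% of astrocytes and 74.3% and 71.0% of oligodendrocytes, against 3.85% and 5.17% of microglia, whose median depth was 12391 and 9421 UMIs against 14503 and 8945 in astrocytes.

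The alpha chains of the endothelial membrane are Lama4 and Lama5, and neither was highest in endothelial cells. Lama4 was at 241 and 198 CPM in pericytes, 126 and 112 in fibroblasts, 97.4 and 75.5 in endothelial cells, 75.0 and 58.7 in oligodendrocyte precursors and 53.4 and 45.9 in smooth muscle. Lama5 was at 187 and 187 CPM in smooth muscle, 60.6 and 52.2 in endothelial cells and 7.38 and 14.8 in pericytes, while fibroblasts gave 0 and 2.24 CPM, which is 1 UMI in all. The smooth muscle values of Lama5 differed by less than 1 CPM between the mice. Lama3, known from epithelial laminin, was highest in endothelial cells at 38.8 and 18.2 CPM, followed by glutamatergic neurons at 7.27 and 11.7 CPM.

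Of the beta chains, Lamb1 was highest in fibroblasts and then pericytes, and Lamb2 reached the whole vessel wall. Lamb1 was at 235 and 186 CPM in fibroblasts, 96.3 and 80.0 in pericytes, 4.25 and 1.19 in endothelial cells and 0 and 4.12 in smooth muscle. Glutamatergic neurons lay above those last 2 classes in each mouse. In the tests described below, Lamb1 also passed as higher in neurons than in glia, with 1669 against 90 UMIs. Lamb2, the beta chain common in vascular and muscle membranes, was at 362 and 363 CPM in smooth muscle, 146 and 242 in fibroblasts, 181 and 200.4 in pericytes and 137 and 142 in endothelial cells, and at 20.9 and 18.7 in astrocytes. Lamb3 reached 3.54 and 2.26 CPM in astrocytes, its highest class by the mean.

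Lamc1, the gamma chain of most laminins, was found in every class. It was at 589 and 969 CPM in fibroblasts, 698 and 634 in pericytes, 177 and 209.97 in smooth muscle, 99.9 and 115 in oligodendrocyte precursors, 78.8 and 81.0 in endothelial cells and 39.6 and 49.2 in oligodendrocytes. Lamc3 was at 333 and 352 CPM in fibroblasts and 283 and 331 in pericytes, with 26.7 and 68.2 in smooth muscle and 14.8 and 17.4 in endothelial cells. Outside the vessels it was high in habenular neurons, at 95.1 and 34.3 CPM.

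**Figure D3:**
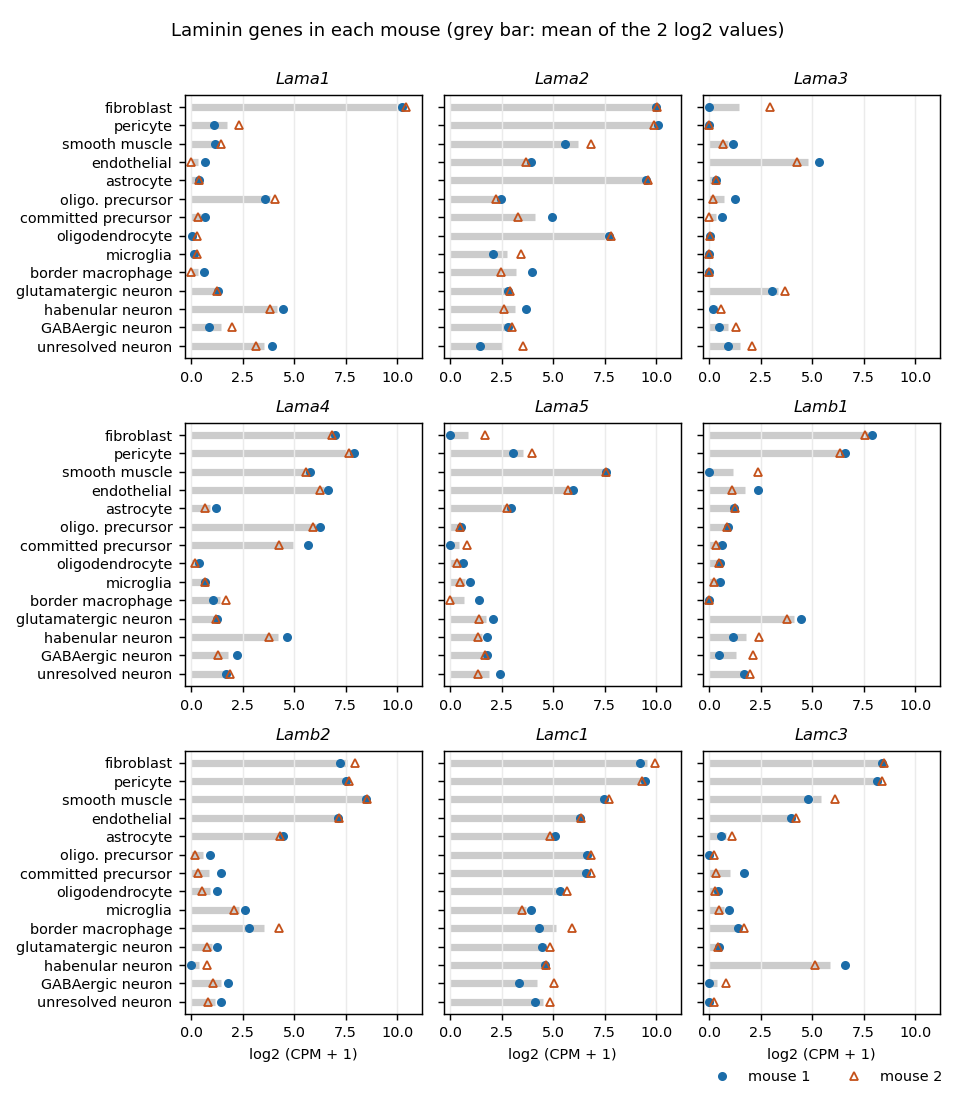
Dot plots of 9 laminin genes in the 14 cell classes; the horizontal axis is log2(CPM + 1), filled circles are mouse 1, open triangles mouse 2 and grey bars the mean of the 2 log2 values. Lama1 is high in fibroblasts, Lama2 in fibroblasts, pericytes and astrocytes, Lama4 in pericytes, and Lama5 and Lamb2 in smooth muscle.

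Fibrillar collagens were highest in fibroblasts for types I, III and V. Col1a1 was at 993 and 976 CPM in fibroblasts (985 ± 12.5, SD, n = 2 mice), and Col1a2, which encodes the partner chain of type I collagen, at 1422 and 1727 CPM. Col3a1, the chain of the type III collagen of blood vessels, was at 418 and 680 CPM. The next class held far less of each, as astrocytes had 13.96 and 13.02 CPM of Col1a1, pericytes 166 and 189 CPM of Col1a2, and pericytes 31.1 and 119.7 CPM of Col3a1. The chains of type V collagen, which starts fibril assembly, were at 57.8 and 15.7 CPM (Col5a1), 167 and 238 CPM (Col5a2) and 51.03 and 105 CPM (Col5a3) in fibroblasts. Pericytes had 54.0 and 85.4 CPM of Col5a2 and 40.0 and 63.2 CPM of Col5a3, and for Col5a3 the 2 classes overlapped.

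Some of the pericyte signal of these genes sat in few cells. All 22 Col1a1 UMIs of mouse 2 pericytes came from 4 of 287 cells, and mouse 1 pericytes had 1 UMI. Of the 178 Col3a1 UMIs in mouse 2 pericytes, 91 came from 4 cells, whereas the 4 highest of the mouse 1 cells held 14 of 80. Col1a2 UMIs were spread more widely, over 62.6% and 52.3% of pericytes.

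The other fibrillar collagens were highest outside the vessels. Col11a1, a chain of the cartilage-type collagen XI, was at 127 and 172 CPM in oligodendrocyte precursors, 71.4 and 89.7 in fibroblasts and 29.0 and 41.1 in committed precursors. Col11a2 was at 72.9 and 89.8 CPM in committed precursors and 86.8 and 63.9 in precursors, which overlapped. Col27a1 was highest in microglia, at 180.2 and 206 CPM, and was found in 73.0% and 78.2% of them, against 8.07% and 5.47% of oligodendrocytes, whose median depth was 25250 and 14504 UMIs. Pericytes (87.0 and 101 CPM), precursors (103 and 69.1) and fibroblasts (81.7 and 80.8) followed. Col24a1 reached 7.27 and 6.71 CPM in precursors and Col2a1, the collagen of cartilage, 6.26 and 7.59 CPM in committed precursors.

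Beaded filament collagen VI, a microfibril that links fibres to cells, was at 139 and 186 CPM (Col6a1), 95.3 and 123 CPM (Col6a2) and 13.6 and 31.4 CPM (Col6a3) in fibroblasts. Pericytes came next for Col6a1, at 0 and 10.8 CPM, and for Col6a2, at 14.4 and 24.2 CPM. Col6a6 was at 13.6 and 4.49 CPM in fibroblasts, and Col6a4 reached 1.75 and 0.687 CPM in unresolved neurons.

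Most of the fibril-associated collagens, which coat other fibrils, had their highest mean either in fibroblasts or in the oligodendrocyte lineage. Col12a1 was at 299 and 778 CPM in fibroblasts, Col22a1 at 51.03 and 71.8 CPM and Col16a1 at 37.4 and 38.1 CPM. Oligodendrocyte precursors came next for Col16a1, at 24.5 and 23.6 CPM. Col9a3, a chain of the collagen IX of cartilage surfaces, was at 389 and 310.3 CPM in committed precursors, 36.8 and 43.3 in precursors, 36.6 and 36.5 in astrocytes and 14.5 and 15.3 in oligodendrocytes. Col9a1 was at 129 and 75.2 CPM in committed precursors against 30.4 and 22.8 in precursors. Col20a1 was at 103 and 69.4 CPM in committed precursors, and Col9a2 at 14.2 and 16.2 CPM there, although fibroblasts were highest for Col9a2 in mouse 1. The committed class, the stage between precursor and myelinating cell, thus had the highest mean of 4 of these 9 genes. Col14a1 was highest in smooth muscle at 34.0 and 44.7 CPM. Col19a1 was highest by the mean in unresolved neurons at 13.5 and 20.8 CPM, although smooth muscle had 18.2 CPM in mouse 1 and 0 in mouse 2.

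Multiplexins sit at basement membranes and can be cleaved to give endostatin-like fragments. Col15a1 was at 538 and 998 CPM in fibroblasts, and the next class was microglia at 49.2 and 73.4 CPM, with UMIs in 35.4% and 45.4% of them. Col18a1 was at 309.6 and 328 CPM in fibroblasts, 153 and 94.7 in smooth muscle, 23.3 and 13.04 in endothelial cells and 6.21 and 28.9 in pericytes. Col8a1, a short-chain collagen of vessel walls, was at 76.9 and 90.1 CPM in pericytes and 68.0 and 44.1 in smooth muscle. Col8a2 was at 23.8 and 4.49 CPM in fibroblasts and 6.05 and 10.2 in habenular neurons. Col10a1 was at 0 and 0.511 CPM in habenular neurons, its highest class by the mean.

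Among the transmembrane collagens Col13a1 (289 and 462 CPM) and Col23a1 (139 and 197 CPM) were highest in fibroblasts, and Col25a1 in neurons. Col25a1, whose shed ectodomain is found in amyloid plaques, was at 616 and 787 CPM in habenular neurons, 199 and 475 in glutamatergic neurons, 104 and 224 in unresolved neurons and 77.8 and 219.9 in GABAergic neurons. Mouse 2 was higher than mouse 1 in all 4 neuronal classes. Col17a1 was at 0 and 2.23 CPM in border macrophages, its highest class by the mean. Of the remaining collagens, Col26a1 was at 180.3 and 114 CPM in fibroblasts and 70.4 and 53.2 in glutamatergic neurons, Col7a1, the anchoring fibril collagen, at 20.4 and 35.9 CPM in fibroblasts, and Col28a1 at 36.1 and 33.0 CPM in pericytes.

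**Figure D4:**
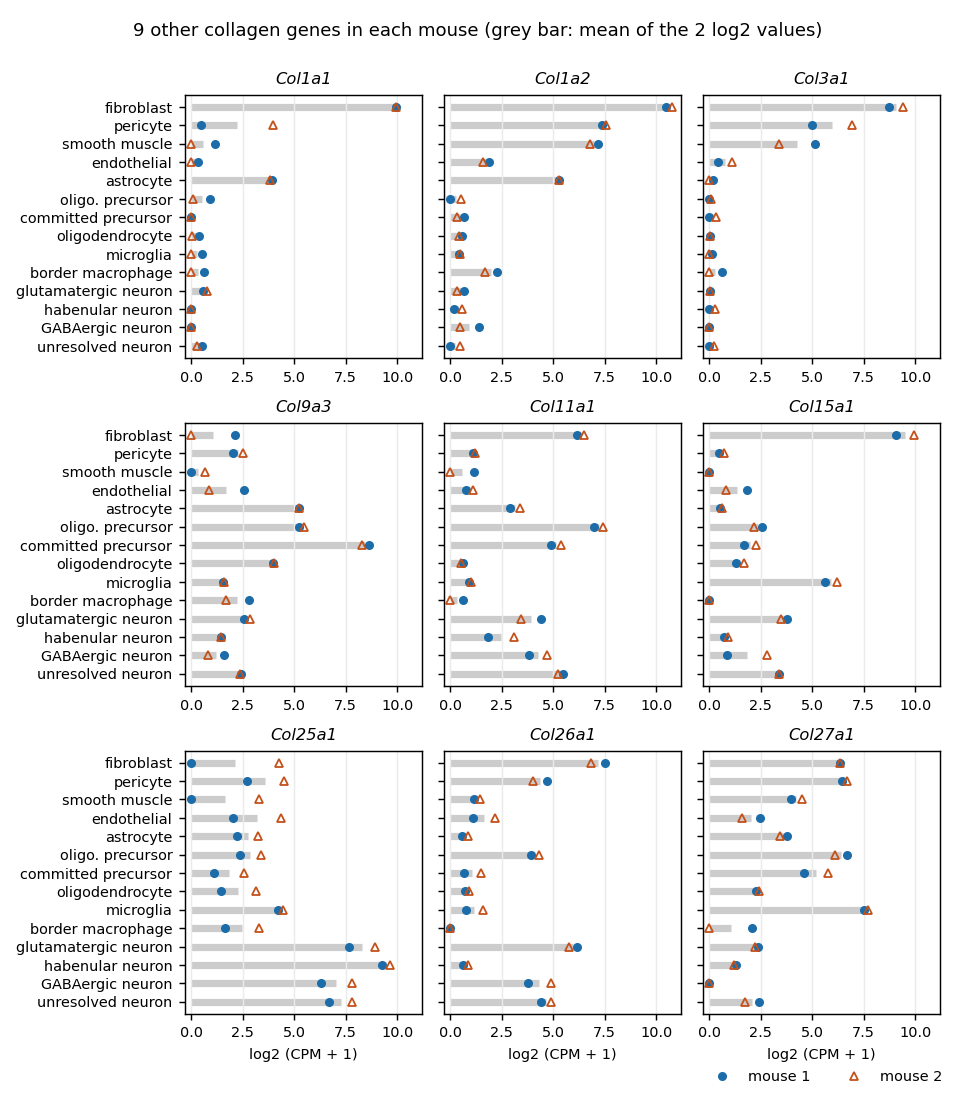
Dot plots of 9 collagen genes outside type IV in the 14 cell classes; the horizontal axis is log2(CPM + 1), filled circles are mouse 1, open triangles mouse 2 and grey bars the mean of the 2 log2 values. Col1a1, Col1a2, Col3a1 and Col15a1 peak in fibroblasts, Col9a3 in committed precursors, Col11a1 in precursors, Col27a1 in microglia and Col25a1 in habenular neurons.

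The differences between classes were tested with edgeR's quasi-likelihood test on the UMI sums of the 14 classes in each mouse, with the mouse as a block, over 16943 genes at once. A gene passed at an adjusted p under 0.05 and a log2 difference of at least 1. The fitted difference compares mean log2 levels, so where a side holds several classes it can differ in size, and for genes high in a single class even in sign, from the ratio of the plain CPM. No fitted value is printed where a class in the comparison had 3 UMIs or fewer. The mice are separate animals, but with n = 2 each p rests on the spread over all 28 sums. Differences within mouse 1 and within mouse 2 carry no test and are given where either moved the fitted value of a named gene by more than 1.5 times. They were taken from log2 CPM with a prior count of 2 added, which shrinks differences at low counts more than the fit does. A single-mouse value can thus differ from the fitted one by method as well as by mouse. Of the 54 members 51 were tested. Col6a4, Col10a1 and Col17a1 were too low.

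Fibroblasts set against the other 3 vascular classes gave the longest list of higher members. The test was passed by 31 of 51 members with a higher level in fibroblasts, or 60.8%, against 8.33% of all genes, and by 1 with a lower level, or 1.96%, against 4.71%. The median log2 difference was 3.51 over the members and -0.18 over all genes. Higher were 8 of 11 fibrillar collagens, 4 of 4 tested type VI chains, 5 of 9 fibril-associated collagens, both multiplexins, 2 of 6 type IV chains, 2 of 5 laminin alpha, 1 of 3 beta and 2 of 3 gamma chains. Lama1 rose by 9.85 ± 0.36 (log2, SE; edgeR adjusted p = 3.04e-13) over a mean of 0.996 and 1.93 CPM in the other classes. Col12a1 rose by 7.90 ± 0.47 (edgeR adjusted p = 1.68e-10), Col4a6 by 5.47 ± 0.27 (2.25e-11), Col1a2 by 5.19 ± 0.24 (3.46e-12) and Col4a5 by 4.63 ± 0.27 (2.95e-10). Lama2 differed by 3.14 ± 0.41 and Lamc1 by 1.63 ± 0.28, each higher in fibroblasts than in the mean of the other classes. Neither was set apart from pericytes alone, which were the higher class in mouse 1. Lama2 was at 1027 and 1048 CPM in fibroblasts and 1078 and 961 in pericytes, and Lamc1 at 589 and 969 against 698 and 634. In mouse 1 and mouse 2 taken alone the log2 difference was 6.93 and 8.33 for Col12a1, 4.73 and 6.18 for Col4a6 and 3.999 and 5.49 for Col4a5.

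Col22a1 had no UMI in pericytes, smooth muscle or endothelial cells and was at least 437-fold higher in fibroblasts, taking 3 counts over those classes as the floor. Col1a1, Col13a1, Col15a1 and Col8a2 also passed, with a class at 3 UMIs or fewer, as was so for 13 of the 32 members that passed. Lama5 was the member that fell, with 0 and 2.24 CPM against a mean of 85.0 and 84.7 CPM. Its 1 UMI put the ratio at 0.021 (95% counting interval 0.001 to 0.116). Col9a2 passed as higher on mouse 1 alone, with 20.4 and 0 CPM in fibroblasts. For Col4a1 the difference was 0.64 ± 0.32 (edgeR adjusted p = 0.205), for Col4a2 0.23 ± 0.28 (0.692), for Lamb2 -0.25 ± 0.38 (0.785) and for Lama4 0.12 ± 0.26 (0.885), and none of these passed.

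Other genes of the matrix were followed as lists. In fibroblasts 13 of 17 interstitial matrix genes were higher and 2 lower, as were 8 higher and 1 lower of 28 genes of collagen biosynthesis and 6 higher and 0 lower of 10 matrix turnover genes. Pcolce, which enhances procollagen cleavage, was at 609 and 644 CPM against 44.2 and 32.1 and rose by 5.03 ± 0.22 (edgeR adjusted p = 2.93e-12). Of 12 basement membrane partners 4 were higher and 4 lower. Agrn, a heparan sulfate proteoglycan of vessel membranes, fell by 3.22 ± 0.34 on the log2 scale (6.38e-07), from 95.8 and 136 to 13.6 and 13.5 CPM. Bcam, a receptor for the laminin alpha chain encoded by Lama5, was at 20.4 and 17.9 CPM in fibroblasts against 239 and 278 in the other classes and fell by 3.80 ± 0.41 (8.65e-07).

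Pericytes and smooth muscle, the mural cells of small and larger vessels, carried different laminin chains, with Lama2, Lama4 and Lamb1 higher in pericytes and Lama5 higher in smooth muscle. Of 51 members 12 were higher in pericytes (23.5%, against 4.83% of all genes) and 3 were lower (5.88%, against 6.32%), and every one of these 15 had more than 3 UMIs in both classes. The median log2 difference was 1.08 over the members and 0.05 over all genes. Lamb1 was higher in pericytes by 4.74 ± 0.72 (edgeR adjusted p = 0.000119), Lama2 by 3.37 ± 0.59 (0.000468), Lama4 by 1.84 ± 0.29 (0.000178) and Col4a4 by 2.50 ± 0.45 (0.000562). Lama5 differed by -4.44 ± 0.42 (edgeR adjusted p = 3.55e-07), Col18a1 by -3.17 ± 0.53 (0.000341) and Col4a5 by -1.26 ± 0.34 (0.0179). Lamb2 differed by -1.22 ± 0.43 (0.0697), Col4a1 by 0.14 ± 0.39 (0.916) and Col4a2 by -0.25 ± 0.33 (0.747), which did not pass. The sizes differed between the mice, with log2 differences within mouse 1 and mouse 2 of 8.86 and 3.90 for Lamb1, 4.30 and 2.77 for Lama2 and -4.81 and -2.03 for Col18a1, and mouse 1 smooth muscle had no Lamb1 UMI.

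Col26a1 was higher in pericytes, at 25.2 and 15.5 CPM against 1.21 and 1.76, by 3.53 ± 0.72 (edgeR adjusted p = 0.00224), and Col27a1 by 2.02 ± 0.41 (0.00227). The other pericyte members that passed were Col4a3 (2.20 ± 0.55), Col5a2 (2.89 ± 0.58), Col5a3 (3.09 ± 0.70), Col28a1 (2.77 ± 0.71), Lamc1 (1.53 ± 0.37) and Lamc3 (2.32 ± 0.43). Within each mouse the log2 difference was 3.96 and 2.69 for Col26a1, 2.19 and 3.77 for Col5a3 and 3.16 and 1.95 for Lamc3. Col4a3, Col5a2, Col5a3, Col28a1, Lamc1 and Lamc3 did not pass with clustering at resolution 2, where the pericyte class held 523 and 417 cells. Of these, 196 and 164 came from a cluster that carried pericyte and endothelial markers together, so the class was not made of the same kind of cells. Smooth muscle markers summed to 2504 and 3114 CPM in pericytes and pericyte markers to 4155 and 5932 CPM in smooth muscle. Among partners, Ntn4, a laminin-related netrin, was at 68.3 and 108 CPM in pericytes and 1087 and 1012 in smooth muscle, a difference of -3.89 ± 0.46 (5.28e-06), and Eln, elastin, was at 2.72 and 14.1 CPM against 97.1 and 146, a difference of -4.31 ± 0.59 (3.00e-05), which was -5.29 and -3.68 within each mouse. Of 10 turnover genes 2 were higher and 3 lower in pericytes, and of 16 receptor genes 1 was higher and 4 lower.

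Endothelial cells, set against the mean of pericytes and smooth muscle, had lower levels of many collagens and of several laminins. Of 51 members 2 were higher (3.92%, against 12.6% of all genes) and 20 lower (39.2%, against 10.3%). The median log2 difference was -1.60 over the members and 0.08 over all genes. Lower were 6 of 11 fibrillar collagens and 4 of 6 type IV chains. Col4a6 differed by -7.78 ± 0.50 (edgeR adjusted p = 6.13e-10), Col4a5 by -6.24 ± 0.45 (2.82e-09), Col1a2 by -5.81 ± 0.39 (5.69e-10), Col3a1 by -5.83 ± 0.68 (1.23e-06) and Lama2 by -4.34 ± 0.60 (8.06e-06). Lamc1 differed by -2.07 ± 0.34 (7.18e-05) and Lamc3 by -2.89 ± 0.41 (1.27e-05). The value for Lamb1 was -2.11 ± 0.67 (0.0216), but within mouse 1 alone it was 0.28 and within mouse 2 alone -3.78, on the log2 scale. The single-mouse values were -6.96 and -8.71 for Col4a6, -5.73 and -7.67 for Col4a5 and -5.81 and -4.65 for Col3a1.

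Lama3 was higher in endothelial cells, with 2 UMIs in the mural classes and a ratio of 116 (95% counting interval 31.8 to 956). Col15a1, at 2.60 and 0.790 CPM, was the other. For Col4a1 the difference was -0.24 ± 0.34 (edgeR adjusted p = 0.689), for Col4a2 -0.02 ± 0.28 (0.993), for Lama4 -0.21 ± 0.24 (0.595) and for Lama5 0.40 ± 0.31 (0.391). Haemoglobin mRNA stood at 61377 and 5480 CPM in endothelial cells and pericyte markers at 1361 and 2091 CPM, and their part in these values was not tested. The laminin receptor chain gene Itga6 was at 663 and 746 CPM in endothelial cells against 5.29 and 17.4 in mural cells, a rise of 7.19 ± 0.53 (1.88e-09), and Itga7 was at 1.82 and 2.37 against 127 and 139.9, a difference of -5.96 ± 0.42 (1.21e-09). Collagen biosynthesis genes were higher in 1 and lower in 12 of 28.

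The 4 vascular classes together, set against the 8 neural classes, had higher mean log2 levels of all 6 type IV chains and 4 of 5 laminin alpha chains. Not every vascular class shared this. Col4a5 and Lama2 were lower in endothelial cells than in astrocytes, and fibroblasts had 1 Lama5 UMI. Of 51 members 30 were higher (58.8%, against 14.2% of all genes) and 7 lower (13.7%, against 21.1%), with a median log2 difference of 2.75 over the members and -0.23 over all genes. Lamb2 was at a mean of 206 and 237 CPM in vascular against 3.80 and 2.85 in neural classes and rose by 7.45 ± 0.24 (edgeR adjusted p = 9.25e-16). Col4a1 rose by 5.98 ± 0.19 (5.44e-16), Col4a2 by 4.91 ± 0.15 (5.29e-16), Lama4 by 4.57 ± 0.14 (4.69e-16) and Lamc1 by 2.92 ± 0.15 (1.57e-12). Col3a1, Col4a6 and Lamc3 also passed as higher, with some of the 12 classes at 3 UMIs or fewer, as in 28 of the 37 members that passed. Lower in the mean of the vascular classes were Col25a1, by -2.22 ± 0.27 (3.75e-07), and Col2a1, Col9a1, Col9a2, Col9a3, Col11a1 and Col11a2. Fibroblasts did not share this for Col11a1, where they came second of all classes at 71.4 and 89.7 CPM. For Col9a2 they were the highest class in mouse 1. Within mouse 1 and mouse 2 the log2 difference was -4.61 and -1.80 for Col25a1 and 6.65 and 7.63 for Lamb2.

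Genes for proteins that join or fold these chains were counted as well. Of 12 basement membrane partners 7 were higher and 1 lower. Nid1, nidogen, was at 263 and 374 CPM against 2.28 and 2.09 and rose by 7.29 ± 0.22 (edgeR adjusted p = 3.48e-16), or 6.55 and 7.43 in each mouse alone, and Hspg2, perlecan, rose by 6.06 ± 0.14 (9.79e-18) from 1.83 and 1.96 to 99.0 and 116 CPM. Of 28 biosynthesis genes 12 were higher and 3 lower. Serpinh1, the collagen chaperone, was at 452 and 297 CPM against 13.5 and 11.4 and rose by 6.68 ± 0.17 (7.25e-17).

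Astrocytes, whose end feet meet the vascular basement membrane, were set against the other 7 neural classes. Of 51 members 21 were higher (41.2%, against 19.8% of all genes) and 8 lower (15.7%, against 16.6%), and the median log2 difference was 0.79 over the members and 0.02 over all genes. Lama2 was at 722 and 788 CPM against a mean of 38.4 and 37.5 and rose by 6.08 ± 0.31 (edgeR adjusted p = 1.21e-12). Lamb2 was at 20.9 and 18.7 CPM against 1.36 and 0.589 and rose by 4.84 ± 0.36 (5.45e-10). Higher than the mean log2 level of those 7 classes were 5 of 6 type IV chains, among them Col4a2 by 1.76 ± 0.24 (3.42e-06) and Col4a1 by 1.53 ± 0.29 (0.000178). Astrocytes were not above every neural class, since Col4a1 was slightly higher in glutamatergic neurons in each mouse. Col4a2 also passed as higher in neurons than in glia, by 1.26 on the log2 scale. Col4a6, another of the 5, had 11 UMIs in astrocytes, and its call was lost under 2 other settings. Lama4 differed by -2.15 ± 0.36 (4.07e-05), Col25a1 by -2.80 ± 0.40 (5.26e-06) and Col26a1 by -3.16 ± 0.52 (3.38e-05), all lower in astrocytes.

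Astrocytes also held mRNA of both type I collagen chains without type III. Col1a1 was at 13.96 and 13.02 CPM, with a UMI in 18.6% and 11.6% of astrocytes against 0.761% and 0.0605% of oligodendrocytes. Col1a2 was at 37.3 and 37.7 CPM, in 34.2% and 25.5% of astrocytes against 1.32% and 0.393% of oligodendrocytes. Oligodendrocytes were the deeper class, with a median of 25250 and 14504 UMIs against 14503 and 8945. No astrocyte held more than 3 Col1a1 UMIs, and all but 8 of the 46 UMIs of mouse 2 lay outside its 4 highest cells. Col3a1 gave 2 and 0 UMIs in astrocytes, although fibroblasts had it at 418 and 680 CPM. Col1a1, Col1a2, Col4a5 (22.4 and 24.9 CPM) and Col5a2 (22.6 and 21.2 CPM) passed as higher in astrocytes, with other neural classes at 3 UMIs or fewer. The fibroblast list summed to 481 and 297 CPM in astrocytes, 12334 and 6816 in oligodendrocytes and 12864 and 18385 in fibroblasts, and without its gene Ptgds to 231 and 211, 5.96 and 7.56, and 10768 and 15213 CPM. The choroid plexus list summed to 2573 and 81.8 CPM in astrocytes, and the part of both lists in these values was not tested.

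Of 28 collagen biosynthesis genes 13 were higher in astrocytes and 1 lower, of 16 receptors 9 and 2, of 12 basement membrane partners 6 and 0, of 17 interstitial matrix genes 7 and 1, and of 10 matrix turnover genes 3 and 3, where 19.8% of all genes were higher and 16.6% lower. Itga6 was at 374 and 365 CPM against 8.95 and 7.24 and rose by 6.07 ± 0.28 (edgeR adjusted p = 2.04e-13). Serpinh1 was at 78.1 and 81.8 CPM against 4.26 and 1.31 and rose by 5.67 ± 0.23 (2.96e-14), or 4.84 and 6.08 in each mouse alone. Frem1 and Frem2, which encode large proteins of epithelial basement membranes, were at 74.7 and 66.8 and at 62.4 and 58.9 CPM in astrocytes, and each passed.

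Neuronal classes, set against the glial classes, had more Col25a1 and less Col9a1, Col9a3 and Col11a2. Of 51 members 15 were higher (29.4%, against 21.1% of all genes) and 10 lower (19.6%, against 14.8%), with medians of 0.22 over the members and 0.02 over all genes. Col25a1 was at a mean of 249 and 427 CPM against 2.66 and 7.67 and rose by 5.73 ± 0.25 (edgeR adjusted p = 1.34e-13), and Col26a1 rose by 2.58 ± 0.30 (3.08e-07) from 3.95 and 5.60 to 26.0 and 27.7 CPM. Col9a3 was at 3.24 and 3.20 CPM in neurons against 119 and 101 and differed by -4.41 ± 0.20 (2.47e-13). Col11a2 differed by -4.19 ± 0.21 (6.37e-13), Lama2 by -3.19 ± 0.32 (2.91e-08) and Lamc1 by -1.63 ± 0.19 (2.41e-07). These are averages over classes, and not every class shared them. Col26a1 had 12 UMIs in habenular neurons against 317 in oligodendrocyte precursors, 2 classes of similar total UMIs over both mice. Lama2 was also low in 1 glial class, the precursors, which had 66 UMIs of it. Sparc, a collagen-binding glycoprotein, was at 16.4 and 6.26 CPM in neurons against 227 and 221 and differed by -4.12 ± 0.26 (2.39e-11), and of 28 biosynthesis genes 5 were higher and 11 lower. Within mouse 1 and mouse 2 the log2 difference was -3.80 and -2.91 for Lama2 and -3.57 and -4.83 for Sparc.

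Within the oligodendrocyte lineage the precursors had more of most members that changed. Of 51 members 18 were higher in precursors than in oligodendrocytes (35.3%, against 22.4% of all genes) and 2 were lower (3.92%, against 14.4%), with medians of 0.75 over the members and 0.02 over all genes. Lama4 was at 75.0 and 58.7 CPM against 0.301 and 0.116 and rose by 7.90 ± 0.39 (edgeR adjusted p = 2.13e-11). Col11a1 was at 127 and 172 CPM against 0.531 and 0.446 and rose by 7.83 ± 0.49 (1.84e-10). Lama1, at 10.9 and 15.9 CPM against 0.0354 and 0.213, rose by 6.37 ± 0.52 (3.71e-09), and Col27a1 by 3.97 ± 0.38 (4.53e-08). The log2 difference in each mouse alone was 6.98 and 7.46 for Lama4, 7.14 and 7.84 for Col11a1 and 5.53 and 5.14 for Lama1.

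Lama2 went the other way, with 4.54 and 3.69 CPM in precursors, 29.6 and 8.87 in committed precursors and 209 and 221 in oligodendrocytes. The difference of precursors from oligodendrocytes was -6.15 ± 0.71 (edgeR adjusted p = 3.68e-07), and 2.82% and 3.002% of precursors had a Lama2 UMI. In the oligodendrocyte clusters the Lama2 level ran from 114 and 126 CPM in cluster 9 to 294 and 285 CPM in cluster 18. Itgb4, which pairs with the product of Itga6 to bind laminin, was also lower in precursors, at 2.73 and 0.988 CPM against 108 and 84.3, a difference of -6.41 ± 0.55 (8.63e-09), or -5.64 and -6.50 in each mouse alone. Dag1, dystroglycan, a receptor for the protein encoded by Lama2, was higher in precursors, at 109 and 119.7 CPM against 18.5 and 19.9, by 2.20 ± 0.19 (9.23e-09).

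Habenular neurons, from the nucleus next to the thalamus, differed from thalamic glutamatergic neurons in laminins and in several minor collagens. Of 51 members 11 were higher (21.6%, against 8.58% of all genes) and 18 lower (35.3%, against 12% of all genes), with medians of -1.29 over the members and -0.05 over all genes. Lamc3 was at 95.1 and 34.3 CPM against 0.387 and 0.363 and rose by 7.27 ± 0.54 (edgeR adjusted p = 5.69e-09). Col5a3 was at 8.07 and 23.9 CPM against 0.425 and 0.163 and rose by 5.82 ± 0.65 (1.28e-06). Lama4 rose by 3.57 ± 0.31 (3.44e-08), from 1.35 and 1.30 to 23.7 and 12.8 CPM, and Lama1 by 3.51 ± 0.40 (1.13e-06). Col25a1 was higher by 1.17 ± 0.39 (0.0301), and it did not pass with DESeq2, without the low-count filter, without the mouse block or at clustering resolution 0.5. Within each mouse the log2 difference was 7.29 and 5.91 for Lamc3 and 3.67 and 6.05 for Col5a3.

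Lower in habenular neurons were Col26a1, at 0.538 and 0.818 CPM against 70.4 and 53.2, by -6.60 ± 0.52 (edgeR adjusted p = 1.64e-08), Col8a1 by -5.49 ± 0.80 (3.68e-05), Col15a1 by -3.97 ± 0.52 (1.12e-05) and Lamb1 by -2.61 ± 0.53 (0.000844). Col4a2 was at 9.41 and 10.0 CPM against 29.8 and 33.2 and differed by -1.79 ± 0.35 (0.000602). Taken singly, the mice gave -6.70 and -5.81 for Col26a1, -5.70 and -4.58 for Col8a1, -4.02 and -3.33 for Col15a1 and -4.02 and -1.60 for Lamb1. Col12a1 had 3 UMIs in habenular neurons, a ratio of 0.005 with both mice pooled (95% counting interval 0.001 to 0.015). Glutamatergic neurons had it at 5.11 and 43.6 CPM, so the pooled ratio rests mostly on mouse 2. Fras1, a basement membrane partner, was at 4.44 and 2.76 CPM against 291 and 184 and differed by -6.25 ± 0.61 (1.43e-07).

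GABAergic neurons, with 48 and 63 cells, were also set against glutamatergic neurons, and most of the members that passed were lower. Of 51 members 1 was higher (1.96%, against 4.26% of all genes) and 9 lower (17.6%, against 5.94%), with medians of -0.50 over the members and -0.07 over all genes. Lamb1 was at 0.403 and 3.34 CPM against 21.0 and 12.9 and differed by -3.33 ± 0.67 (edgeR adjusted p = 0.00202), and Col26a1 by -1.86 ± 0.39 (0.00276). Col15a1 differed by -2.03 ± 0.51 (0.0123), Col25a1 by -1.44 ± 0.39 (0.0178) and Col4a2 by -1.12 ± 0.37 (0.04995), and each of these 3 was lost under 3 or more other settings. Taken singly, the mice gave log2 differences of -5.33 and -2.09 for Lamb1, -2.65 and -1.12 for Col26a1 and -3.90 and -0.98 for Col15a1. Col27a1 had no UMI in GABAergic neurons and was at least 6.52-fold lower there. The member that was higher, Col6a3, was at 1.61 and 1.49 CPM against 0.193 and 0.125.

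**Figure D5:**
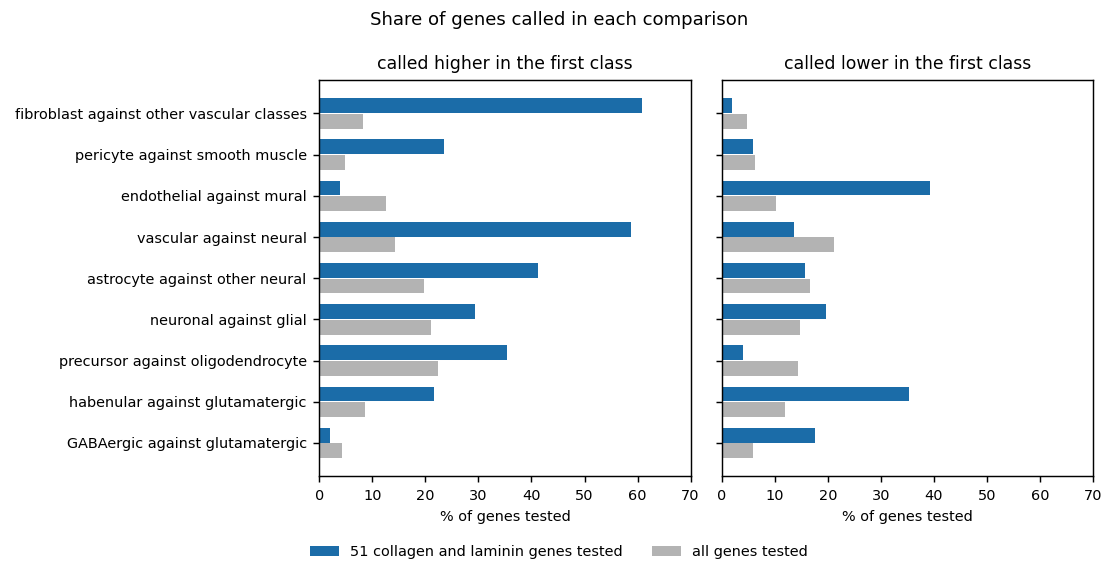
Bars show the percent of the 51 tested members (blue) and of all 16943 genes (grey) that passed as higher (left) or lower (right) in the first-named class of each of 9 comparisons. The widest gap is in fibroblasts, with 60.8% of members higher against 8.33% of all genes.

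The neuronal members also varied between clusters of a class. In habenular neurons Col25a1 was at 1259 and 996 CPM in cluster 25 (52 and 120 cells) and 332 and 734 CPM in cluster 20 (91 and 228 cells), and Lamc3 at 149 and 51.3 CPM and 71.5 and 30.03 CPM. Both genes were thus higher in cluster 25 in each mouse. In glutamatergic neurons Col26a1 was at 148 and 93.9 CPM in cluster 15, 74.8 and 66.4 in cluster 8 and 26.9 and 19.6 in cluster 19, an order shared by both mice. Col12a1 was at 45.7 and 86.1 CPM in cluster 19 and 2.30 and 39.6 CPM in cluster 15. Cluster 21, with 104 cells of mouse 2 and too few of mouse 1 for a value, held Col11a1 at 158 CPM, Col15a1 at 79.1 CPM and Col19a1 at 53.6 CPM. The glutamatergic class was made up differently in the mice, with 69 and 735 cells in cluster 15 and 21 and 509 in cluster 19. Microglia were split too, with 740 and 7 cells in cluster 13 and 82 and 490 in cluster 14. Oligodendrocytes had 1291 and 223 cells in cluster 6 and 11 and 1446 in cluster 7. The part this make-up plays in the class values was not tested. The clusters were made from the same cells, and those named here were chosen after their values were seen, so the values are descriptions without a test.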

How the data were processed

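Both libraries were taken as deposited, as raw UMI counts per gene and cell; the submitters' processing notes name Cell Ranger 7.1.0, Seurat 5 and mm10 without saying what each was used for. Barcodes under 500 genes or 1000 UMIs, or above 15% mitochondrial UMIs, were dropped, and doublets called by Scrublet were removed (2.94% and 2.84%, below the 6.31% and 9.69% expected at this loading). Scanpy 1.11.5 clustered them (2000 variable genes without members, 30 components, 15 neighbours, Leiden resolution 1) into 33 clusters. The rule that left clusters with markers of 2 classes unnamed was set after seeing the data. UMI counts were summed per class and mouse (at least 20 cells) and fitted with edgeR 4.0.16 (TMM, filterByExpr, class plus mouse as a block, since the same mice gave all classes; residual df 13) in R 4.3.3. DESeq2 1.42.0 was an alternative. The fit was tested on simulated data with known changes. Named are members of at least 50 CPM in a class and, per comparison, up to 6 that passed in each direction with the largest changes, the same sign in both mice and at least 10 CPM, and up to 3 per related list at 50 CPM; others were named after their values were seen. Members and lists were chosen with earlier results of these data known. 1 member is counted but not reported here by name. Intervals cover counting error only.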

Additional observations from a re-analysis of the deposited data

Results flagged for a closer look

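Ependymal cells, which line the ventricles, were outside the comparisons because mouse 1 gave 4 of them, but the 29 ependymal-like cells of mouse 2 held 4 members at levels above each of the 14 tested classes in that mouse. Col5a3 was at 112.036 CPM there (54 UMIs, 95% counting interval 84.2 to 146), against 105 CPM in fibroblasts, whose value lies inside that interval. Lama3 was at 29.046 CPM (14 UMIs, 15.9 to 48.7), against 18.2 CPM in endothelial cells, which is also inside. Lamb3 was at 12.448 CPM (6 UMIs, 4.57 to 27.1), against 4.49 CPM in fibroblasts. The fibroblasts of mouse 2 held 445796 UMIs in all, so their Lamb3 value rests on very few UMIs. Its counting error is not in the interval, and Lamb3 is not shown to differ between the 2 classes. Col8a2 was at 60.167 CPM (29 UMIs, 40.3 to 86.4), against 10.2 CPM in habenular neurons. Each value exceeds the 6.22 CPM that 3 UMIs would give in these cells. They come from 1 mouse, so there is no replicate check.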

How the results depend on the processing

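Of 219 calls of a member in a comparison, 217 kept their side of the threshold with RLE scaling, 210 with DESeq2, 211 without the low-count filter, 208 without the replicate block, 215 at 2000 or more genes per cell, 200 with doublets kept, 203 at Leiden resolution 2 and 209 at resolution 0.5, and none turned its direction. At a mitochondrial limit of 5% 95 were kept and 15 lost, and comparisons with fibroblasts or smooth muscle could not be fitted as mouse 1 kept 17 and 2 of those cells. Members lower in fibroblasts (1) became 2 without the low-count filter, 2 at 2000 genes and 2 at resolution 0.5. Pericytes against smooth muscle (12 higher, 3 lower) gave 6 lower with doublets kept and 7 higher and 12 lower at resolution 2. At resolution 2 the pericyte class also took in a cluster with pericyte and endothelial markers together. Members lower in precursors (2) became 1 with doublets kept, and members higher in habenular neurons (11) became 7 without the filter. Members higher in GABAergic neurons (1) became 2 with DESeq2, 5 with doublets kept, 6 at resolution 0.5, 0 with edgeR without the replicate block (2 at an unadjusted p under 0.05) and 0 with edgeR at the mitochondrial limit of 5% (1 at an unadjusted p). Members lower there (9) became 4 at resolution 0.5. The GABAergic class, of 48 and 63 cells in the main run, held 98 and 390 with doublets kept and 97 and 377 at resolution 0.5. In those 2 settings no class of unresolved neurons remained, so the comparison was not between the same cells. The cause of these changes was not tested. In single mice, which allow no test, the log2 difference moved by more than its SE for 102 of the 219 without replicate 1 and 104 without replicate 2, and 4 changed sign: Col9a2 in fibroblasts was 5.56 in mouse 1 and -0.53 in mouse 2, Lamb1 in endothelial cells 0.28 and -3.78, Col8a2 in astrocytes 2.20 and -1.75, and Col28a1 in neurons -0.15 and 1.68. These counts of moves do not measure the mice alone, since the single-mouse values use a prior count of 2 and the fit does not. For Lama4 in precursors, for example, both mice (6.98 and 7.46) lay below the fitted 7.90. RLE scaling moved the median of all genes by 0.18 (log2) in precursors against oligodendrocytes, with 4093 genes higher and 2003 lower against 3795 and 2440. The highest class was the same for 54 members at 2000 genes, 49 with doublets kept and 52 at each other resolution. With 21 and 48 fibroblasts, depth limits the members with few UMIs most.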

Other observations

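The cells that stayed unnamed also held vascular chains. Cluster 0 (211 and 175 cells) carried pericyte and endothelial markers together, and its Col4a1 level was 629 and 652 CPM, Lama2 328 and 497 CPM, Col4a3 36.8 and 67.1 CPM and Lama3 25.8 and 16.6 CPM. It thus had both Col4a3, highest in pericytes, and Lama3, highest in endothelial cells. Cluster 1 (144 and 89 cells), with endothelial and erythroid markers, had Col4a1 at 224 and 209 CPM and Col4a2 at 162 and 163 CPM.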
